A study of Homo sapiens with 3 samples.

Results

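Cluster 10 is a small group of single cells from spheroids of CAMA-1, an estrogen receptor-positive human breast cancer cell line, and its cells were those that carry the number 10 in the clustering the authors deposited. It held 294 of the 19237 annotated cells, and 293 of these belonged to the ribociclib-resistant lineage. The resistant members came from the coculture (145 cells) and the resistant monoculture (148 cells), and 0 members came from the sensitive monoculture. The remaining member was a sensitive cell of the coculture with 49707 UMIs (unique molecular identifiers, 1 per captured RNA molecule), of which 2 were from mVenus and 0 from mCherry, and it was left out of every value below. The proposed marker MGP did not mark the cluster. MGP, which encodes the secreted matrix Gla protein, was lower in cluster 10 than in any of the other 5 resistant clusters, so the cells are called here only by their cluster number and by the genes that lead them.

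Each spheroid was started from 2000 cells, given 1 µM ribociclib with DMSO, per the labels, in every culture, and harvested on day 11. The coculture was started from 50% sensitive and 50% resistant cells, the sensitive monoculture from 100% sensitive cells and the resistant monoculture from 100% resistant cells. Sensitive cells carried mVenus and resistant cells, derived from the same line by selection in ribociclib, carried mCherry, and each lineage is a derivative of 1 cell line. With 1 library per culture there is no replicate of any condition, and cells of 1 library are not replicates, so no test was made between conditions. The clusters were built by the authors from the same genes that are described here, so every difference between clusters is a description, with no test, and the intervals given cover counting error only.

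Ribociclib inhibits CDK4 and CDK6, the kinases that phosphorylate the retinoblastoma protein and so release E2F transcription factors at the end of G1. E2F factors switch on the genes for nucleotide supply, origin licensing, the replication fork and replication checkpoints, and histone genes are transcribed mainly while DNA is copied. Cells that keep cycling in the drug therefore pass through S phase, and a transcriptome can place a cell there through these genes. The trefoil factors and several small secreted proteins are by contrast products of estrogen-responsive luminal breast cells.

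Among resistant cells, cluster 10 made up 145 of 6292 in the coculture, or 2.30% (exact binomial 95% interval 1.95 to 2.71), and 148 of 7557 in the resistant monoculture, or 1.96% (1.66 to 2.30). These intervals overlapped. The other resistant clusters used for comparison, numbers 0, 1, 2, 5 and 6, held 12958 resistant cells. No barcode of cluster 10 occurred in both libraries, while 17 annotated barcodes were shared between the coculture and the resistant monoculture. The summed depth of cluster 10 was 5071015 UMIs in the coculture and 6080359 in the resistant monoculture, and its median cell had 35490 and 42695 UMIs. These medians were above those of each of the other 5 clusters in both libraries.

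Cluster 10 cells held luminal markers, most of them somewhat below the other resistant clusters, and little or nothing of the markers of other cell types. ESR1, the estrogen receptor, was measured at 16.4 CPM (UMIs of the gene scaled to a total of 1000000 UMIs) in cluster 10 of the coculture (83 UMIs) and 11.7 in the monoculture (71 UMIs), against 17.3 and 14.3 CPM in the other resistant clusters, which kept it under the level filter of 20 CPM used below. GATA3, a luminal transcription factor, stood at 417 CPM in cluster 10 of the coculture against 406 in the other resistant clusters, and at 302 against 352 in the monoculture. KRT18 and KRT19, the luminal keratins, were at 2006 and 1840 CPM against 2646 and 2591 in the coculture, and at 2668 and 2291.5 against 3598 and 3249 in the monoculture. Of the 13 luminal list members that passed the level filter, 11 were lower in both libraries by any amount and 1 was higher, beside 1531 lower and 2396 higher of all 4612 genes tested. The 15 listed luminal markers summed to 7478 CPM in the coculture and 8803 in the monoculture for cluster 10. The sums were 8399 and 10039 in cluster 1, and 7053 and 8709 in the lowest of the other clusters. Against cluster 1 alone the median log2 ratio was -0.09 and -0.15. The summed level of 10 basal and myoepithelial markers was 10.1 CPM in the coculture and 4.93 in the monoculture, with 5 of the 10 at 0 UMIs. Fibroblast markers summed to 4.34 and 3.45 CPM with 6 of 8 at 0, endothelial markers to 0.197 and 0 CPM with 4 of 5 at 0, and immune markers to 1.18 and 1.48 CPM with 6 of 9 at 0. mCherry, the transgene of the resistant lineage, reached 124 CPM in cluster 10 of the coculture and 84.3 in the other resistant clusters, and 77.1 against 53.8 CPM in the monoculture. Cluster 6 alone had similar levels, 118 and 87.2 CPM. In the monoculture 92.6% of cluster 10 cells had an mCherry UMI and 11 cells had none. A recomputed doublet score had a median of 0.046 in the coculture cells and 0.051 in the monoculture cells of cluster 10, below the median of every other resistant cluster, and 5 and 2 of its cells lay above 0.25, the limit the authors state. The median mitochondrial share was 12.8% and 12.2%, also below the other clusters.

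The promoters of 4 genes that stood out in cluster 10 are printed next because the results turn on them: CLSPN, GINS2 and RRM2 from the DNA replication program, and SCIN, the gene that led once phase was matched. Each window runs from 250 bases before the gene's start to 50 bases after it, 5′ to 3′ on the gene's strand, in lower case, as given by RefSeq on GRCh38.p14. Capitals mark matches to TTTCCCGC or TTTGGCGC on either strand, the core letters of a common E2F site.
CLSPN, chr1:35769929-35770228, minus strand: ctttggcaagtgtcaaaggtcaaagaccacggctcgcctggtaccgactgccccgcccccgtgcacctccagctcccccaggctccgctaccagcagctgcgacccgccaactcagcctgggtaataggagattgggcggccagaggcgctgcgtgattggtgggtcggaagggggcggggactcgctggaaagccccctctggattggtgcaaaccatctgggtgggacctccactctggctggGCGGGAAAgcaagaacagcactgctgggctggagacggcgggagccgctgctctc
GINS2, chr16:85688905-85689204, minus strand: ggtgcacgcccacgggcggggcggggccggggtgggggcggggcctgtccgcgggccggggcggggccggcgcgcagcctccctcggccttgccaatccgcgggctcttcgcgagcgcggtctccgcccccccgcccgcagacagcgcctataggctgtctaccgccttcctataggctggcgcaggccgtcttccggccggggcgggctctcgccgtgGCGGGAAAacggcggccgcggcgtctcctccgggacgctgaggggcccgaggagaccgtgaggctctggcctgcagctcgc
RRM2, chr2:10122489-10122788, plus strand: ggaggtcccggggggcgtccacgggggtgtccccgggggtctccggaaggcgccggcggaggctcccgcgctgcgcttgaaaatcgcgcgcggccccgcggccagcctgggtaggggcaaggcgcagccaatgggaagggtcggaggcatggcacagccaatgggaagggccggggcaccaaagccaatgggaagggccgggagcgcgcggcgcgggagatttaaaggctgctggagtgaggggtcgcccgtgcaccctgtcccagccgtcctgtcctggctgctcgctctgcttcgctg
SCIN, chr7:12570470-12570769, plus strand: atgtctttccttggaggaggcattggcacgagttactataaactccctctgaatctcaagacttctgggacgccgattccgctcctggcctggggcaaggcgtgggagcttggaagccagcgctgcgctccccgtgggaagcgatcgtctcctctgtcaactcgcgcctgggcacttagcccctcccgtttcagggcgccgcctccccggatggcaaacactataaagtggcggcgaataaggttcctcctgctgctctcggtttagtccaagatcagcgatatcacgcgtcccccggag
A match was found in the CLSPN window, starting 5 bases before the gene's start, and in the GINS2 window, starting 31 bases before it, and none in those of RRM2 and SCIN. Such a match is a string of letters and not a measured binding site. Promoters were at hand for 3894 of the 4612 genes tested, and 4.78% of these held a match, against 2.31% of all 27305 promoters in the table. Among the 237 genes at least 1.5-fold higher in cluster 10, 29 of the 195 with a promoter held one (14.9%), among the S phase list 9 of 24 (37.5%), and among the genes at least 1.5-fold lower 0 of 60.

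Almost every cell of cluster 10 was in S phase by the phase the authors assigned from canonical cell-cycle genes. In the coculture 136 of 145 cells (93.8%, exact binomial interval 88.5 to 97.1) were in S and 9 (6.21%) in G2M. The resistant monoculture gave 143 of 148 cells (96.6%, 92.3 to 98.9) in S and 5 (3.38%) in G2M. G1 was assigned to 0 of 145 and 0 of 148 cells, which allows a share of up to 2.07% and 2.03%. Cluster 1 was the only other cluster made mostly of S-phase cells, at 90.4% and 90.3%, with 2.83% and 2.62% in G1. Cluster 2 was 98.2% and 97.9% G2M, and cluster 6, which proved close to cluster 10 in other ways, was 58.0% and 52.6% G1, 27.0% and 31.6% S and 15.0% and 15.8% G2M. The median S score was 0.294 and 0.307 in cluster 10 and 0.222 and 0.226 in cluster 1, and the lowest S score of any resistant member was 0.134. Phase and clusters rest on the same transcripts, so this agreement was built in to some extent.

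**Figure D1:**
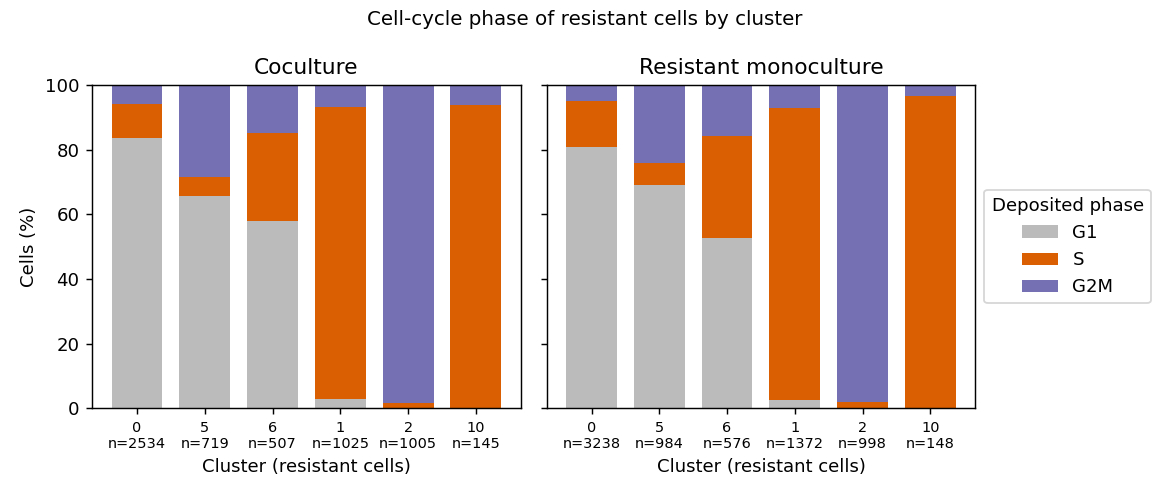
Stacked bars give the percentage of resistant cells assigned to G1, S and G2M (vertical axis) in each cluster (horizontal axis, with the number of cells), separately for the coculture and the resistant monoculture. Cluster 10 has no G1 segment and is 93.8% and 96.6% S phase, cluster 1 is about as rich in S phase, and cluster 6 is mostly G1.

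Over the 4612 genes tested, 237 (5.14%) were at least 1.5-fold higher in cluster 10 than in the other 5 clusters together in both libraries, and 75 (1.63%) were at least 1.5-fold lower. The level filter asks for a mean of 20 CPM over cluster 10 and the other clusters, so a gene can pass through the side where it is high and then had to differ. This was so for 309 of the 4612 genes, of which 63 were called higher and 24 lower. Over the 4303 genes that reached 20 CPM on both sides, 174 (4.04%) were called higher and 51 (1.19%) lower. When the reference was reweighted to the phases of cluster 10 itself, so that S-phase cells were compared mainly with S-phase cells, 85 genes (1.84%) were higher and 46 (0.997%) lower. Of these, 77 of the higher genes were also among the 237 (32.5% of the 237 and 90.6% of the 85), and 44 of the lower genes were among the 75 (58.7% and 95.7%). The match was by assigned phase only and was incomplete. The highest S score of any cell was 0.219 and 0.200 in cluster 0 and 0.272 and 0.251 in cluster 6. These lay below the median of cluster 10, 0.294 and 0.307. Phase-matched ratios of S phase genes can therefore keep part of the phase difference. By the root mean square log2 ratio over all genes tested, cluster 10 was nearest to cluster 1 (0.286 in the coculture and 0.282 in the monoculture), then to cluster 2 (0.353 and 0.357), cluster 6 (0.380 and 0.375), cluster 5 (0.475 and 0.494) and cluster 0 (0.577 and 0.584). Restricted to the S-phase cells of cluster 6, 137 and 182 cells, the distance was 0.305 and 0.313, close to that of cluster 1. The S-phase cells of cluster 1, 927 and 1239 cells, gave 0.284 and 0.281, and those of clusters 0, 2 and 5 gave 0.430 to 0.491. Counting error adds to this distance and is larger in sums over fewer cells, so small gaps do not rank the clusters.

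Genes of DNA replication made up most of the 12 highest genes, and SCIN, described further on, was the fifth of them at log2 ratios of 2.10 and 2.20. FAM111B, which encodes a protease-domain protein of replicating cells, stood at 144 CPM in cluster 10 of the coculture against 24.7 in the other clusters, and at 151 against 27.4 CPM in the monoculture, a log2 ratio of 2.50 and 2.43. CCNE2, the cyclin E2 partner of CDK2, gave 56.0 against 9.37 CPM and 38.5 against 7.20, or 2.46 and 2.27 on the log2 scale, and it passed the level filter through cluster 10. Both genes were higher in cluster 10 than in each of the 5 other clusters, and the next cluster was cluster 1, with 95.2 and 101 CPM of FAM111B and 36.4 and 26.1 of CCNE2. CLSPN encodes claspin, an adaptor of the replication checkpoint and 1 of the genes whose promoter is printed above. It gave 115 against 25.1 CPM in the coculture and 118 against 23 in the monoculture, a log2 ratio of 2.15 and 2.31. RRM2, the small subunit of ribonucleotide reductase that makes deoxynucleotides, gave 106 against 25.6 and 120 against 26.2 CPM (2.01 and 2.15).

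Histone H4 followed the same pattern at a higher level. HIST1H4C stood at 2232 CPM in cluster 10 of the coculture against 484 in the other clusters, and at 1928 against 371 in the monoculture, with log2 ratios of 2.20 and 2.37. Cluster 1 had 1686 and 1246 CPM and cluster 0 had 133 and 119. Most replication histone RNAs lack a poly(A) tail and near-identical copies share reads, so these levels are uncertain as measures of a single gene. The replication histone list had 7 members that passed the level filter, among them H2AFZ and H2AFX, which encode histone variants. Of the 7, HIST1H4C and HIST2H2AC (75.9 against 21.6 and 60.2 against 16.7 CPM) were called higher, beside 5.14% of all genes tested. HIST1H2AC was called lower at log2 ratios of -1.15 and -1.65, beside 1.63%. HIST2H2AC passed the filter through cluster 10. With phase matching 2 of the 7 were called higher and 0 lower, beside 1.84% and 0.997% of all genes tested. Against cluster 1 alone 0 were called in either direction, beside 1.73% and 1.26%.

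WDR76, MCM10, GINS2, POLD3 and ATAD2 were also among the 12 highest genes, with log2 ratios between 1.48 and 1.93 in the 2 libraries. WDR76 and MCM10 passed the level filter only through cluster 10. MCM10 acts at origin firing, GINS2 is part of the replicative helicase and POLD3 is a subunit of DNA polymerase delta. GINS2 gave 144 against 46.7 CPM in the coculture and 174 against 59.1 in the monoculture, and POLD3 gave 286 against 101 and 260 against 87.3. All 5 were highest in cluster 10 among the 6 clusters in both libraries, and cluster 1 came second. Against cluster 1 alone the log2 ratios were small, 0.33 and 0.36 for GINS2 and 0.23 and 0.29 for WDR76.

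**Figure D2:**
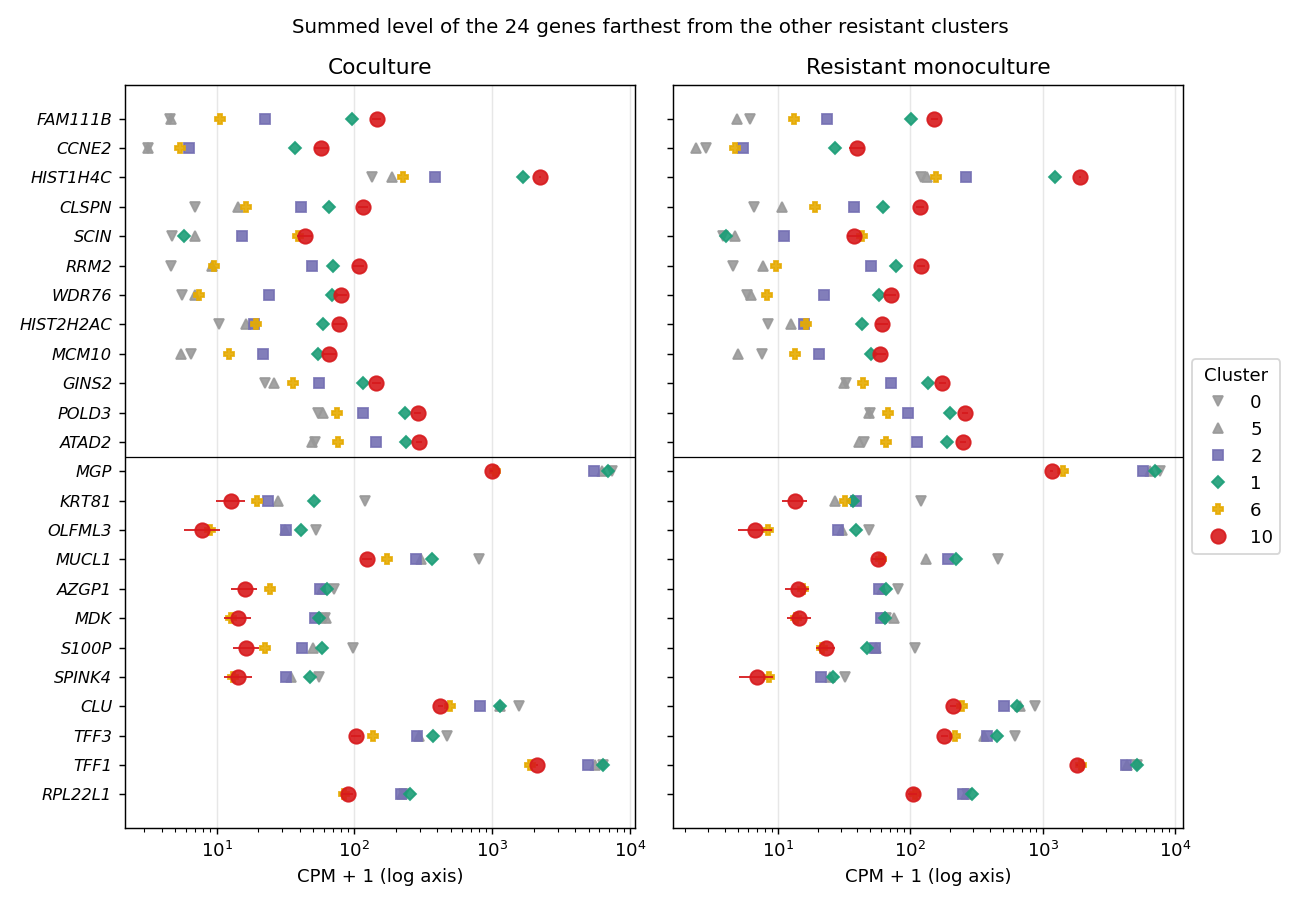
Each row is a gene, with the 12 highest above the line and the 12 lowest below it. The horizontal axis is the summed level plus 1, in CPM on a log axis, symbols are the 6 resistant clusters, and red bars are exact Poisson 95% intervals of cluster 10. Cluster 10 lies farthest right for the replication genes, with cluster 1 next, and lies at the left, mostly beside cluster 6, for the 12 lowest genes.

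The S phase list as a whole was high in cluster 10. Of 33 members that passed the level filter, 32 were at least 1.5-fold higher in both libraries and 0 lower, beside 5.14% and 1.63% of all genes tested, with a median log2 ratio of 1.34 in the coculture and 1.40 in the monoculture, beside 0.06 and 0.07 over all genes tested. Of the 33, 10 passed through cluster 10 alone and so had to differ, and among the 23 that reached 20 CPM on both sides 22 were called higher, beside 4.04% of such genes. These genes also defined the phase, so the count repeats what the phase already gave. The large subunit of ribonucleotide reductase, RRM1, was the member not called. PCNA, the sliding clamp of the replication fork, gave 195 against 71.3 CPM and 232 against 87.2. With the reference matched for phase, 33 of 33 were higher in both libraries by any amount, against 51.0% of all genes tested, 9 passed 1.5-fold, against 1.84%, and the median was 0.50 and 0.54. Part of this can come from the incomplete match, since the reference included S-phase cells with lower S scores.

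Genes of G2 and mitosis were raised less. Of 39 G2M list members, 8 were called higher and 0 lower, beside 5.14% and 1.63% of all genes tested, 1 of them (HJURP) having passed through cluster 10, with a median log2 ratio of 0.24 and 0.33. The 8 included MKI67, the proliferation antigen (120 against 68.6 and 131 against 62.6 CPM), CDK1 (0.86 and 0.80 on the log2 scale) and AURKB, a mitotic kinase (0.92 and 0.92). After phase matching 3 of the 39 were called higher and 0 lower, beside 1.84% and 0.997% of all genes tested. CCNB1, the mitotic cyclin B1, was at 78.3 against 158 CPM and 81.2 against 154, about the level of cluster 1 (80.2 and 88.3).

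The regulators on which ribociclib acts were examined as a list of 21 genes, of which 11 passed the level filter. Of these 11, CCND3, CCNE1, CCNE2, E2F1 and CDKN2D were called higher and 0 lower, beside 5.14% and 1.63% of all genes tested, but CCNE1, CCNE2 and CDKN2D passed the filter through cluster 10 and had to differ. Among the 6 members that reached 20 CPM on both sides, CCND3 and E2F1 were called higher, beside 4.04% of such genes. E2F1 gave 69.2 against 30.4 CPM in the coculture and 87.3 against 38.3 in the monoculture, and CCNE1, cyclin E1, gave 31.2 against 15.0 and 33.6 against 15.7. CDK4 itself was at 159 against 107 and 159 against 110 CPM, just under the limit in both libraries. Its partner CCND1, cyclin D1, was at 1330.5 against 1552 CPM and 1521 against 1694.5. After matching for phase, only CCNE2 of these 11, which had passed through cluster 10, was called, beside 1.84% of all genes higher, and E2F1 differed by 0.15 and 0.23 on the log2 scale.

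MGP was the lowest gene of cluster 10. It stood at 989 CPM in cluster 10 of the coculture (5015 UMIs) against 6270 in the other clusters, and at 1169 CPM (7110 UMIs) against 6642 in the monoculture. The log2 ratio was -2.66 (interval -2.70 to -2.62) and -2.50 (-2.54 to -2.47), and the phase-matched values were -2.72 and -2.52. By cluster, MGP was at 7405 and 7731 CPM in cluster 0, 6952 and 7085 in cluster 1, 5469 and 5730 in cluster 2, 6262 and 6493 in cluster 5, and 1041 and 1423 in cluster 6. Clusters 10 and 6 thus stood together far below the other 4. Sensitive cells had 404 CPM in their monoculture and 1041 in the coculture.

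The same was seen cell by cell. After each cell was thinned to 5000 UMIs, the median MGP count of cluster 10 was 3 in the coculture (range 0 to 43) and 4 in the monoculture (0 to 28). It was 30 and 31 in cluster 1, and 3 and 5 in cluster 6. The interquartile range ran from 1 to 6 and from 2 to 8 UMIs in cluster 10, against 15 to 48 and 15 to 50 in cluster 1, so these ranges did not overlap, and both clusters were mostly S phase.

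The mammary secretory list had 10 members, of which MGP, MUCL1, AZGP1 and CLU passed the level filter. All 4 were called lower, beside 1.63% of all genes tested, but AZGP1 passed only through the other clusters and had to differ. MUCL1, a small mucin of breast epithelium, gave 123 against 510 CPM in the coculture and 56.4 against 297 in the monoculture. AZGP1, the secreted zinc-alpha-2-glycoprotein, gave 15.0 against 60.4 and 13.2 against 65.9. CLU, the secreted chaperone clusterin, gave 419 against 1199 and 211 against 701. Cluster 6 was low as well, at 172 and 58.7 CPM of MUCL1, 23.3 and 14.6 of AZGP1 and 492 and 247 of CLU. MUCL1 was highest in cluster 0, at 804 and 458 CPM. Both MUCL1 and AZGP1 were also abundant in sensitive cells, at 2910 and 215 CPM in the sensitive monoculture, whereas clusters 10 and 6 were low for them. AGR2, a disulfide isomerase of the secretory pathway, lay the other way, at 146 against 116 and 283 against 173 CPM.

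OLFML3, a secreted olfactomedin-domain protein, was at 6.90 against 39.1 CPM and 5.76 against 37.4, from 35 UMIs in each library, with log2 ratios of -2.34 and -2.51. MDK, the heparin-binding growth factor midkine, was at 13.2 against 53.4 and 13.5 against 60.5 CPM. The trypsin inhibitor SPINK4 and the calcium-binding S100P followed, with log2 ratios from -1.59 to -2.04 over the 2 genes and libraries. KRT81, a hair keratin with near-identical relatives, was at 11.6 against 67.9 and 12.5 against 72.4 CPM, with much of the difference set by cluster 0 at 118 and 121 CPM. OLFML3, MDK, SPINK4, S100P and KRT81 all averaged under 20 CPM in cluster 10 and passed the level filter through the other clusters, so they had to differ.

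Of the estrogen-induced list, 3 of the 21 members that passed the level filter were called lower and 1 higher, beside 1.63% lower and 5.14% higher of all genes tested, with a median log2 ratio of -0.22 and -0.16. By any amount, 15 of the 21 were lower in both libraries, beside 1531 of all 4612 genes, and 13 after phase matching, beside 30.1% of all genes. The trefoil factors were the most shifted members. TFF1 was at 2101 CPM in cluster 10 of the coculture against 5614 in the other clusters, and at 1820 against 4666 in the monoculture, while TFF3 was at 102 against 365 and 180 against 484. Cluster 6 was about as low, at 1882 and 1939 CPM of TFF1 and 135 and 217 of TFF3. The 30 listed genes summed to 6006 and 6092 CPM in cluster 10 and to 6043 and 6416 in cluster 6. The third lower member was CELSR2 (-1.34 and -0.88) and the higher one was OLFM1 (0.61 and 0.69). After phase matching 3 of the 21 were called lower and 0 higher, beside 0.997% and 1.84% of all genes tested. PGR, the progesterone receptor and a standard estrogen target, was at 22.1 against 23 and 19.7 against 22.4 CPM, and GREB1 at 43.6 against 56.6 and 49.5 against 57.6. HSD17B1, the enzyme that reduces estrone to estradiol and which was looked up because the study concerns estradiol, was at 17.7 against 37.9 and 13.5 against 39.2 CPM, with cluster 1 at 31.5 and 31.4 and cluster 6 at 22.2 and 18.8. HSD17B1 was under 20 CPM in cluster 10 and passed the level filter through the other clusters, so it had to differ.

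With the reference matched for phase, the genes farthest above it were no longer led by the replication program. SCIN, the actin-severing protein scinderin, came first, although it passed the level filter only through cluster 10 and so had to differ. It was at 42.6 CPM in cluster 10 of the coculture (216 UMIs) and 37.0 in the monoculture (225 UMIs), against 4.82 and 3.1 in cluster 1, 3.73 and 2.89 in cluster 0 and 38.1 and 42.3 in cluster 6. The S-phase cells of cluster 6 alone had 35.7 and 36.9 CPM. The phase-matched log2 ratio was 2.27 and 2.41. Sensitive cells had still more, at 105 CPM in their monoculture and 78.3 in the coculture. At 5000 UMIs per cell a SCIN UMI was found in 20.7% of cluster 10 cells of the coculture (interval 14.4 to 28.2) and 18.9% of the monoculture (13.0 to 26.2), against 2.05% and 1.46% of cluster 1. Unthinned, the shares in cluster 10 were 67.6% and 60.8%.

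LMO4, a LIM-domain transcriptional adaptor, came next at 60.5 CPM in cluster 10 of the coculture and 38.0 in the monoculture. Cluster 1 had 13.1 and 11.2 CPM and cluster 6 had 41.9 and 43.2, and the phase-matched log2 ratio was 1.82 and 1.41. ANP32E, a chaperone of the histone variant H2A.Z, was at 59.0 and 57.1 CPM against 20.4 and 21.3 in cluster 1, but cluster 2 held as much (57.6 and 57.5). FABP5, a fatty acid-binding protein with several processed copies that may share its reads, was at 44.8 and 34.0 CPM against 12 and 14 in cluster 1. HSPB11, a component of intraflagellar transport, was at 110 and 85.4 CPM against 40.6 and 36.9 in cluster 1. LMO4 and FABP5, like SCIN, averaged under 20 CPM in the other clusters together and passed the level filter through cluster 10. Cluster 6 had 44.1 and 47.6 CPM of ANP32E, 22.8 and 20.5 of FABP5 and 76.3 and 64.7 of HSPB11. The 5 lowest genes after matching were MGP, OLFML3, AZGP1, MDK and SPINK4, all described above.

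**Figure D3:**
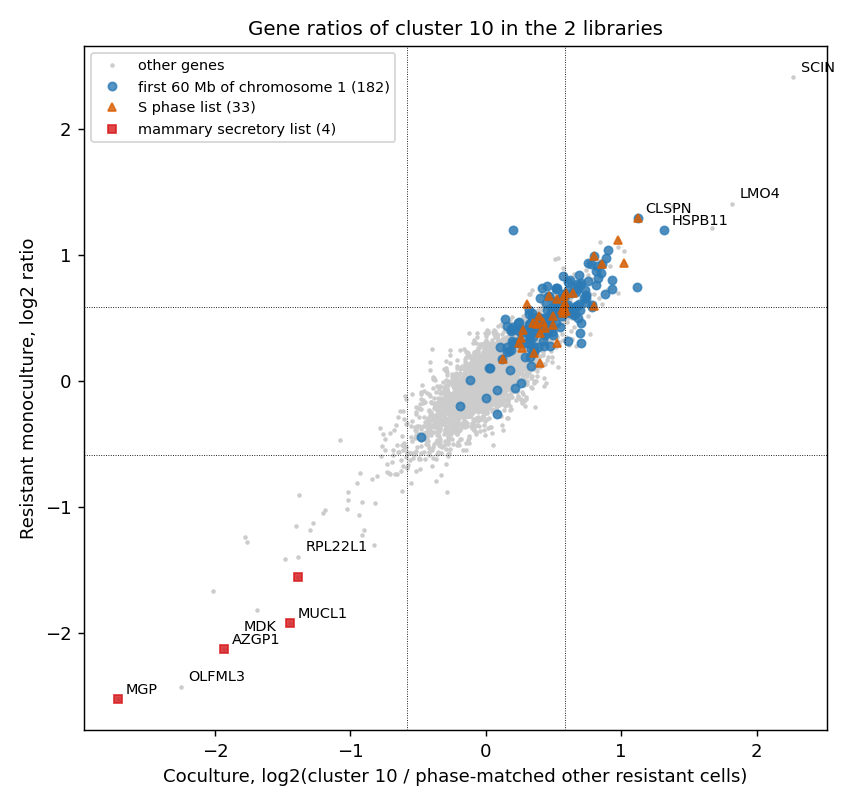
Each point is a gene, with the phase-matched log2 ratio of cluster 10 in the coculture on the horizontal axis and in the resistant monoculture on the vertical axis, and dotted lines at 1.5-fold. SCIN and LMO4 lie at the upper right, MGP, OLFML3 and AZGP1 at the lower left, and the 182 genes of the first 60 Mb of chromosome 1 (blue) lie almost all to the upper right of 0.

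Several of the genes high after phase matching were neighbours on the short arm of chromosome 1. Over whole arms, the phase-matched median log2 ratio of 1p was 0.35 in the coculture and 0.39 in the monoculture, against 0.05 and 0.06 over all genes tested. The shift lay toward the end of the arm. Each of the first 6 windows of 10 Mb had a median between 0.42 and 0.57 without phase matching, and the 92 genes of 1p beyond 60 Mb had medians of 0.00 and 0.02. The limit of 60 Mb was chosen after these values were seen. Within it lay 182 tested genes, from NOC2L (start 879583) to JUN (end 59249720) on GRCh37, and their median log2 ratio was 0.48 and 0.54, or 0.46 and 0.50 with phase matching. Of the 182 genes 175 were higher in both libraries (96.2%), against 52.0% of all genes tested, and 41 were at least 1.5-fold higher after phase matching (22.5%), against 1.84% of all genes tested. None of the 182 was called lower. The 41 included ATAD3A, SRSF10, CTPS1, FNDC10, SYNC, PPIE, ELOA and CDK11B, which averaged under 20 CPM in the other clusters. These passed the level filter through cluster 10 and had to differ, so such genes add to both counts. Leaving out the S and G2M list genes left 177 genes with a median of 0.47 and 0.52.

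Besides HSPB11 and CLSPN, the 41 included STMN1, a microtubule-destabilizing protein (460 against 225 CPM in the coculture and 507 against 219 in the monoculture), HMGN2, a nucleosome-binding protein with many processed copies (1114 against 612 and 1122 against 566), and ENO1, the glycolytic enolase (425 against 212 and 396 against 214). These levels were not highest in cluster 10 throughout, since cluster 2 had 490 and 496 CPM of STMN1 and 1136 and 1040 of HMGN2, and cluster 6 had 392 and 419 of ENO1. JUN, an immediate early transcription factor, was at 116 against 60.9 and 152 against 75.6 CPM. RPL22, a ribosomal protein gene of the same segment, was at 1375 against 1031 and 1442 against 1012 CPM. Its paralog RPL22L1, on chromosome 3, was among the 12 lowest genes, at 88.9 against 216 and 104 against 256 CPM. PSMB2 of the proteasome, NDUFS5 of the respiratory chain and ID3 were each among the 2 most shifted members of their own lists, and all 3 lie on the segment.

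**Figure D4:**
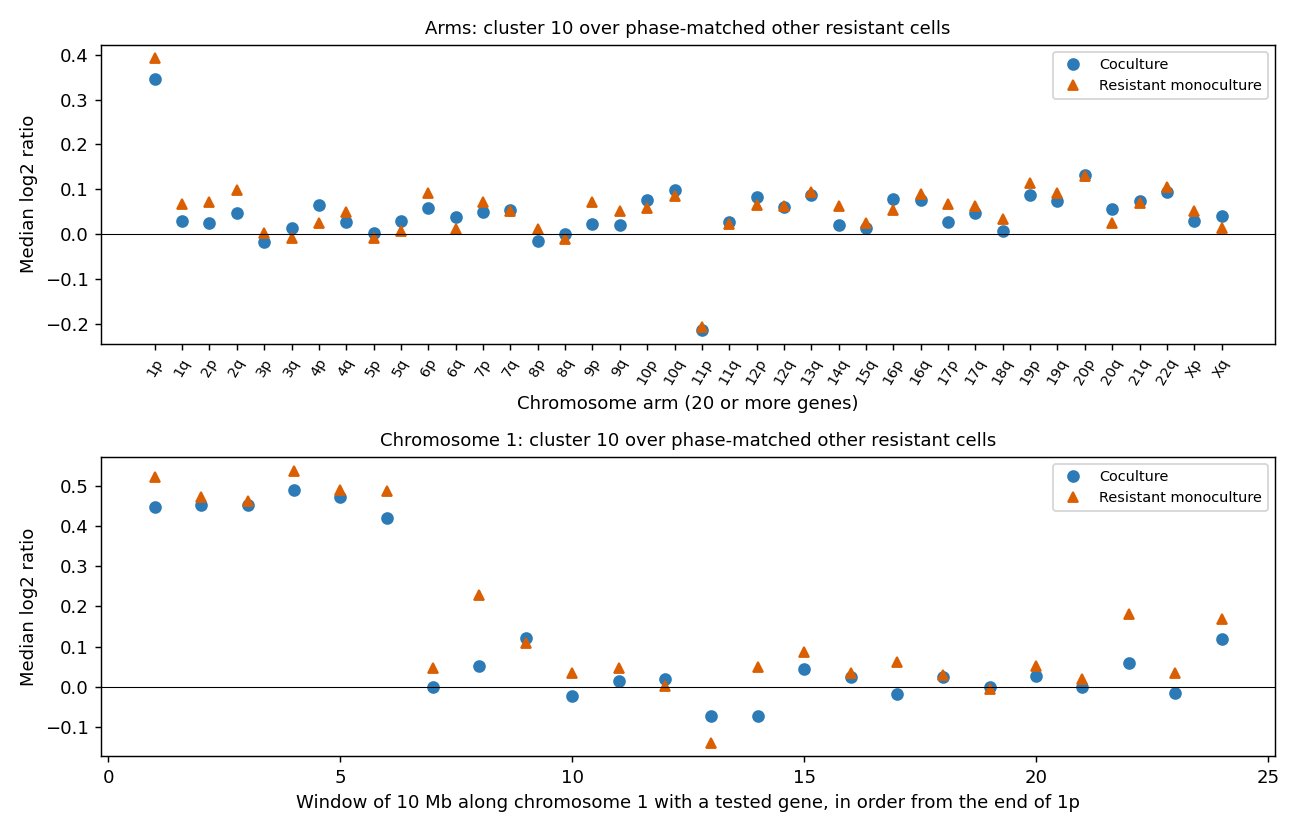
The upper panel gives the median phase-matched log2 ratio of cluster 10 for each chromosome arm with 20 or more tested genes, and the lower panel the same for windows of 10 Mb along chromosome 1, in order from the end of 1p, with circles for the coculture and triangles for the resistant monoculture. Arm 1p stands above and 11p below the other arms. The first 6 windows of chromosome 1 stand above all later ones, which reach 0.23 at most (70 to 80 Mb, 5 genes, monoculture).

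The share of the segment was also taken cell by cell. Its limit was chosen on the sums of these same cells, so the per-cell shares of cluster 10 are no separate check. The median cluster 10 cell had 3.66% of its non-mitochondrial UMIs on the first 60 Mb of chromosome 1 in the coculture and 3.65% in the monoculture, with interquartile ranges of 3.49 to 3.86% and 3.54 to 3.78%. Cluster 1 had 2.48% and 2.47%, cluster 0 2.37% and 2.35%, cluster 2 2.63% and 2.56% and cluster 5 2.54% and 2.48%, whereas cluster 6 had 3.63% and 3.61%. In cluster 10, 134 of 145 cells (92.4%) and 139 of 148 cells (93.9%) lay above the 95th percentile of cluster 1, which was 3.20% and 3.28%. In cluster 6 the same held for 87.4% and 87.3% of cells. Cluster 2 had a tail above this limit, 212 of 1005 cells in the coculture and 201 of 998 in the monoculture, and the median thinned MGP count of that tail was 5 and 4 UMIs against 28 and 29 in the rest of cluster 2. The smaller tails of clusters 0, 1 and 5 had medians of 9 to 14 UMIs against 29 to 32 in the rest. In cluster 6 the medians were 3 and 5 above the limit against 3 and 4 below it. In sensitive cells the median share was 3.0% in the monoculture and 3.15% in the coculture.

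**Figure D5:**
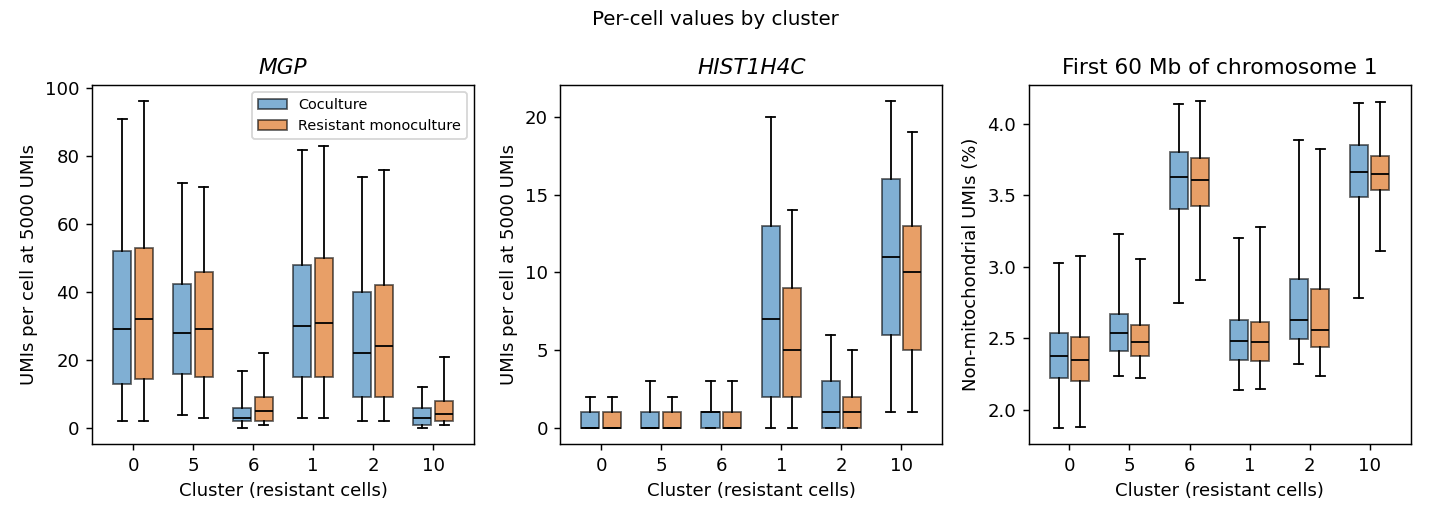
Boxes give the median and interquartile range of resistant cells, and whiskers the 5th to 95th percentile, by cluster for the coculture (blue) and the resistant monoculture (orange). The vertical axes are MGP and HIST1H4C UMIs per cell at 5000 UMIs, and the percentage of non-mitochondrial UMIs on the first 60 Mb of chromosome 1. Clusters 10 and 6 are low for MGP and high for the segment, and clusters 10 and 1 are high for HIST1H4C.

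Arm 11p stood out in the opposite direction. Its 79 tested genes had a median log2 ratio of -0.20 and -0.18 in cluster 10, or -0.21 and -0.21 with phase matching, and 60 of the 79 (75.9%) were lower in both libraries after matching, against 30.1% of all genes tested. The shift was not even along the arm. With phase matching the window of the first 10 Mb had medians of -0.35 and -0.33 over 40 genes and the next window -0.29 and -0.23 over 11, whereas the windows from 30 to 40 Mb and from 40 to 50 Mb had 0.01 and -0.03, and 0.00 and -0.07. The 2 genes between 20 and 30 Mb had a median of 0.17 and 0.31. The 5 genes of the arm called lower after matching, against 0.997% of all genes tested, were SLC22A18 and NUCB2 in the first 20 Mb, CD59 between 30 and 40 Mb, and MDK and CREB3L1 between 40 and 50 Mb, where the median lay near 0. MDK, CREB3L1 and SLC22A18 were under 20 CPM in cluster 10 and passed the level filter through the other clusters. Cluster 6 against clusters 0, 1, 2 and 5 gave -0.24 and -0.24 for the arm, and 0.45 and 0.48 for the first 60 Mb of chromosome 1.

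Cluster 10 was also set directly against cluster 6. At least 1.5-fold higher than cluster 6 in both libraries were 242 genes (5.25%), and 17 (0.369%) were at least 1.5-fold lower. Against only the S-phase cells of cluster 6 these counts were 164 (3.56%) and 7 (0.152%). MGP differed by -0.18 and -0.33 on the log2 scale from those S-phase cells, SCIN by 0.25 and 0.01, MDK by 0.17 and 0.09 and TFF1 by 0.16 and -0.02. RRM2 differed by 2.60 and 2.83 and HIST1H4C by 2.49 and 3.11. The S-phase cells of cluster 6 held only 16.8 and 16.1 CPM of RRM2, against 69.5 and 77.5 in cluster 1. They were thus not matched to cluster 10 in their S phase genes. Against cluster 1, 80 genes (1.73%) were higher and 58 (1.26%) lower, and RRM2 differed by 0.61 and 0.62 on the log2 scale, CLSPN by 0.82 and 0.93 and HIST1H4C by 0.41 and 0.63.

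Within cluster 10 the leading genes were described cell by cell. At 5000 UMIs per cell the median HIST1H4C count was 11 in the coculture (range 0 to 32) and 10 in the monoculture (0 to 23), against 7 and 5 in cluster 1. FAM111B was found in 49.7% and 53.4% of thinned cells, RRM2 in 39.3% and 41.2%, CLSPN in 38.6% and 46.6% and CCNE2 in 25.5% and 18.9%. Over the 145 coculture cells the Spearman correlation of HIST1H4C and CCNE2 was -0.03, and over the 148 monoculture cells 0.03, and for MGP and SCIN it was -0.08 and -0.05. Counts this sparse carry little information on such relations.

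These lists are given beside 5.14% called higher and 1.63% called lower, and a median log2 ratio of 0.06 and 0.07, over all genes tested. With phase matching the shares were 1.84% and 0.997%, and the medians 0.05 and 0.06. Luminal epithelial genes had a median log2 ratio of -0.28 and -0.32 over 13 members, with KRT7 (461 against 806 and 417 against 724 CPM) and MUC1 called lower. After phase matching 0 of the 13 were called. Nucleolar and MYC target genes had 0.37 and 0.35 over 18 members, with NOP56 and ODC1 called higher. Phase matching left 0 of the 18 called, with a median of 0.22 and 0.19. Glycolysis genes had 0.31 and 0.28 over 12 members, with ENO1 as the single call. The 13 mitochondrial-encoded genes had -0.23 and -0.26 and none was called. Of 13 unfolded protein response genes HERPUD1 and SEL1L were called lower, SEL1L having passed the filter through the other clusters, and the list median was -0.18 and -0.17. After phase matching 1 of the 13 was called lower. Of 12 hypoxia genes ENO1 was called higher and ANKRD37 lower, the latter also through the other clusters. ENO1 kept its call after phase matching and ANKRD37 did not. SHMT2 was the single call of 8 ATF4 stress genes, JUN of 12 immediate early genes, PSMB2 of 24 proteasome genes and NDUFS5 of 28 nuclear genes of the respiratory chain, all 4 higher. JUN and PSMB2 kept their calls after phase matching, and SHMT2 and NDUFS5 did not. MT2A of 3 metallothioneins, PMEPA1 of 5 TGFB targets and ID genes and RPL22L1 of 77 cytosolic ribosomal protein genes were the single calls of their lists, all 3 lower. Only RPL22L1 of these kept its call after phase matching. No member was called among 3 nuclear-retained long RNAs, 1 mesenchymal gene, 1 MAPK target, 6 interferon-stimulated, 6 MHC class I, 12 heat shock, 19 lysosome, 6 cholesterol synthesis, 5 BCL2 family and 3 p53 target genes. Of the 4 genes that marked resistant cells in earlier results of these data, MGP, TFF3 and MT2A were called lower in cluster 10, beside 1.63% of all genes tested, and that list was chosen on these libraries. After phase matching 2 of the 4 kept that call, beside 0.997% of all genes tested, and MT2A did not. In the coculture and monoculture MT2A was at 316 and 237 CPM in cluster 10, 142 and 117 in cluster 0 and 306 and 247 in cluster 6. Of 6 genes that marked sensitive cells in those earlier results, SCIN, which passed the filter through cluster 10, was called higher and MUCL1 lower, beside 5.14% and 1.63% of all genes tested.

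Between the 2 cultures, cluster 10 cells of the coculture and of the monoculture were compared as 1 library against 1 library. At least 1.5-fold higher in the coculture were 78 genes (1.69%) and 21 (0.455%) were at least 1.5-fold lower, beside 45 (0.976%) and 3 (0.0650%) in the larger cluster 1. MUCL1 was at 123 CPM in the coculture and 56.4 in the monoculture, and CLU at 419 and 211. Cluster 1 moved the same way, with 365 and 221 CPM of MUCL1 and 1142 and 637 of CLU, and sensitive cells of the coculture had 1376 and 607 CPM, so the part of RNA from neighbouring sensitive cells in these levels was not tested. The interferon-induced ISG15 was at 23.5 CPM in coculture cells and 57.6 in monoculture cells of cluster 10, a log2 difference of -1.26, against -0.36 in cluster 1. AGR2 was at 146 and 283 CPM in cluster 10 and at 99.0 and 154 in cluster 1, a log2 difference of -0.95 and -0.64. These differences have no replicate check.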

How the data were processed

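Single-cell RNA was measured with the 10x Genomics Chromium 3′ v3 kit in 3 libraries, 1 per culture. The authors made the deposited UMI counts per gene and barcode with Cell Ranger 3.0.2 on GRCh37, without normalization. Per the file headers, the annotation lists UMIs, detected genes, the percent of mitochondrial UMIs and the cell cycle score for S and for G2M (Seurat, by the authors), together with phase, cluster, class by transgene and population. The authors state filters of 3000 to 7000 genes, 2000 to 60000 UMIs, under 30% mitochondrial UMIs, a scrublet score of 0.25 and 2 transgene UMIs, and clustering on 2000 variable genes. The deposited annotation also holds cells below that transgene limit: 126 of 145 cluster 10 cells of the coculture and 101 of 148 of the monoculture had 2 or more mCherry UMIs, and 11 of the latter had no transgene UMI. The classes were used as deposited. A further 8 annotation columns were not used.

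The members and the gene lists were chosen with earlier results of these data known. Count rows lacking a symbol (0.523% to 0.591% of all UMIs) stayed out of every sum. UMIs were summed over resistant cells per cluster and library and expressed as CPM. Log2 ratios used a pseudocount of 1 CPM, which understates the change of low genes. The level filter was a mean of 20 CPM over cluster 10 and the other clusters in the 2 libraries, which left 4612 genes, and a call was a ratio of at least 1.5-fold in the same direction in both libraries. The phase-matched reference weighted the G1, S and G2M sums of the other clusters by the shares in cluster 10. Intervals of levels and shares are exact Poisson or exact binomial (Clopper-Pearson) at 95%. Those of log2 ratios are a normal approximation from the counts (delta method), also at 95%. The limit for 0 counts is 3 counts, and all of these cover counting error only. Cells were thinned to 5000 UMIs for per-cell values. Doublet scores were recomputed with scrublet in scanpy 1.11.5, and TMM factors with edgeR 4.0.16 as a scaling alternative only. Gene positions came from GENCODE on GRCh37 and were found for 4597 of the 4612 genes. The named genes were MGP, the 12 highest and 12 lowest by the smaller of both libraries' ratios, the 5 highest and 5 lowest after phase matching, and the 2 most shifted of each list. Other genes were chosen after their values were seen. The steps were tested on simulated data.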

Additional observations from a re-analysis of the deposited data

Results flagged for a closer look

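In the rows of the count tables that carry no gene symbol, which enter no comparison of the report, 47 reached the level filter and 3 were at least 1.5-fold apart in both libraries. The identifier ENSG00000117289 was at 11.6 CPM in cluster 10 of the coculture against 47.4 in the other resistant clusters, and at 7.24 against 42.2 in the resistant monoculture, and the smaller of its log2 ratios was -1.94. TM4SF18-AS1, an antisense RNA, was at 110 against 169 CPM and 62.0 against 96.2, with a smaller log2 ratio of -0.61. The identifier ENSG00000141140 was at 32.5 against 18.1 CPM and 36.2 against 19.2, with a smaller log2 ratio of 0.81.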

How the results depend on the processing

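All 24 alternative values of the chromosome medians stayed within the counting interval or spread of the main values. So did the share of cluster 10 in S or G2M. That share was 100% in both libraries, so any subset of these cells had to give the same value. The number of genes higher or lower in cluster 10 stayed within 1.5 times the main count under 7 alternatives each. Of the main 237 higher genes and 75 lower genes, the counts became 61 and 21 at a fold of 2, 107 and 33 at a mean of at least 50 CPM, 494 and 342 with no level filter, and 85 and 46 with the phase-matched reference. The higher count was 80 against cluster 1, an alternative added after seeing the data, and the lower count was 46 with a pseudocount of 10 CPM. Among resistant cells with at least 2 mCherry UMIs, cluster 10 made up 3.20% in the coculture and 2.93% in the resistant monoculture. The S phase median was 1.13 and 1.14 with a pseudocount of 10 CPM and 0.50 and 0.54 with phase matching, and the mammary secretory median was -1.73 and -1.96, and -1.69 and -2.03. The median of cytosolic ribosomal proteins in the monoculture turned to -8.8e-05 with TMM scaling. Of the other list medians, 144 values stayed within the main range and 29 moved by more without a change of sign. The sign of the near-zero hypoxia, cholesterol synthesis, p53 target, TGFB target and sensitive-lineage lists changed in at least 1 library with phase matching or TMM scaling. For the named genes 133 ratios stayed within their counting interval and 91 did not, and none changed sign. A comparison within G1 could not be made because cluster 10 held 0 G1 cells. No paired analysis was possible because each culture had 1 library and no replicate. With 1 library per culture, differences between the cultures cannot be told apart from differences between libraries, and the cause of each change was not tested.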
